A study of Mus musculus with 9 samples.

Results

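The 35 genes described here encode subunits of the vacuolar H+-ATPase (V-ATPase), enzymes and membrane proteins of the lysosome, and 3 transcription factors of the TFEB family. They were taken by symbol from a fixed list. All 35 were among the 22064 genes of the count and FPKM tables, and all 35 passed the filter on low counts that left 14108 genes for testing. The V-ATPase is a rotary proton pump. Its V1 sector hydrolyses ATP on the cytosolic side, and its V0 sector carries protons across the membrane, which keeps lysosomes acidic and their hydrolases active. TFEB, TFE3 and MITF are related factors that bind E-box letters in the promoters of many lysosome genes, and neutrophils use acidic compartments for digestion of engulfed material and for granule biogenesis.

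RNA was sequenced from neutrophils sorted out of lungs of female BALB/c mice bought as young adults, with CD45, CD11b and Ly6g stains after collagenase digestion. Ly6Ghi (n = 3) were Ly6Ghigh cells and Ly6Glow (n = 3) were Ly6Glow cells from lungs at the macrometastatic stage, after injection of 4T1-LM3 cells into the mammary fat pad. 4T1-LM3 is a lung-tropic mouse breast cancer line selected in vivo from 4T1. NL (n = 3) were Ly6Ghigh cells from lungs of mice with no tumor named in their labels. The labels do not say whether a library held 1 mouse or a pool. The p-values therefore measure only the spread between these libraries, which may be technical.

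Totals were 15267177 to 17841807 counts per library. *Ly6g*, which encodes the sorted surface protein, was at 361 to 380 CPM (read counts relative to the scaled library size) in Ly6Ghi, 385 to 403 CPM in Ly6Glow and 118 to 120 CPM in NL, so its RNA did not follow the order of the sort labels. The NL libraries stood apart in cell type markers. The summed CPM of 15 neutrophil markers was 26800 to 27300 in NL, 108000 to 111000 in Ly6Ghi and 95100 to 97100 in Ly6Glow. Summed epithelial or tumor cell markers were 1520 to 1670 CPM in NL against 146 to 159 CPM in the other 2 groups, and endothelial and fibroblast markers 1150 to 1210 CPM against 155 to 193 CPM. Monocyte and macrophage markers summed to 1300 to 1390 CPM against 851 to 915 CPM, and dendritic cell markers to 837 to 923 CPM against 210 to 358 CPM. Of the 15 monocyte and macrophage markers, 9 were called lower than in NL in each group, with 2 higher in Ly6Ghi and 1 in Ly6Glow. All 9 dendritic cell markers were called lower in both, where 36.6% and 40.8% of all tested genes were. The part of these cells in the differences from NL was not tested. Fewer cells of a type and less RNA per cell cannot be told apart in such bulk libraries. Ly6Glow and Ly6Ghi differed in markers too. In Ly6Glow, 8 of 8 granule genes of early neutrophils were called lower (summed 301 to 317 CPM against 1430 to 1480 CPM), 7 of 8 eosinophil markers (42.3 to 43.9 CPM against 165 to 174 CPM) and 7 of 15 monocyte and macrophage markers (851 to 877 CPM against 909 to 915 CPM). Of all tested genes, 15.9% were called lower. *Csf1r* and *Cd68* of the last list were not called and lay above Ly6Ghi, at log2 fold changes of 0.46 and 0.43. Of 8 tested basophil and mast cell markers, 2 were called higher and 4 lower. The sum of that list was 3950 to 4090 CPM against 2100 to 2160 CPM, led by *Hdc*, which was also on the neutrophil list. The part of any of these cells in the differences between these groups was not tested either.

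Each gene was tested with edgeR's quasi-likelihood test on counts scaled by TMM, a factor that centres the bulk of genes between libraries. A gene was called higher or lower at a Benjamini-Hochberg adjusted p of at most 0.05 and a log2 fold change beyond 0.58. CPM below are on this scale. Scaling by total counts instead, which is also how FPKM (fragments per kilobase of gene, scaled to the depth of the library) behaved, shifted the median log2 fold change of all genes by -0.24 in Ly6Glow against Ly6Ghi, by -0.46 in Ly6Ghi against NL and by -0.70 in Ly6Glow against NL. A gene's distance from the median of all genes changes little with this choice, and directions that turn with it are named as such.

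In Ly6Glow against Ly6Ghi, 2 of the 35 genes (5.71%) were higher, where 9.29% of all tested genes were, and 5 (14.3%) were lower, where 15.9% of all tested genes were. The median log2 fold change of the 35 genes was 0.18, against -0.04 over all tested genes. The groups did not overlap for 30 of the 35 genes, or 85.7%, against a background of 62.1%. In Ly6Ghi against NL, 14 genes (40%) were higher against 26.3% of all tested genes, and 6 (17.1%) were lower against 36.6%. The median here was 0.30, against -0.09 over all tested genes, and the groups were apart for all 35 genes against 85.2%. For Ly6Glow against NL the counts were 18 genes higher (51.4%) with a background of 28.7%, and 8 lower (22.9%) with a background of 40.8%. Its median was 0.61 against -0.16, and the groups were apart for 34 of 35 genes (97.1%) against 86.8%. Both comparisons with NL use the same NL libraries.

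Scaling changed these counts. With total counts, 0 members were higher in Ly6Glow against Ly6Ghi, where 4.04% of all tested genes were, and 6 were lower, where 26.4% were. In each comparison with NL, 3 members were higher and 13 lower with total counts, against 12.3% and 48.5% of all tested genes in Ly6Ghi against NL and 9.43% and 56.7% in Ly6Glow against NL. Of the calls made with TMM, 0 of 2, 3 of 14 and 3 of 18 higher calls were also made with total counts, in the order Ly6Glow against Ly6Ghi, Ly6Ghi against NL and Ly6Glow against NL. The 3 genes were *Atp6v0a1*, *Atp6v1a* and *Atp6v1g1* in both comparisons with NL. All lower calls, 5 of 5, 6 of 6 and 8 of 8, were also made with total counts. Roles were only partly separated. V-ATPase subunits lay above the median of all genes once *Atp6v0d2*, the largest change, was set aside after its values were seen. Several enzymes of glycan and lipid breakdown lay below the median. The enzyme genes *Gla*, *Man2b1*, *Neu1* and *Asah1* lay above it in Ly6Glow against NL, by 0.59, 1.10, 1.03 and 0.80.

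**Figure D1:**
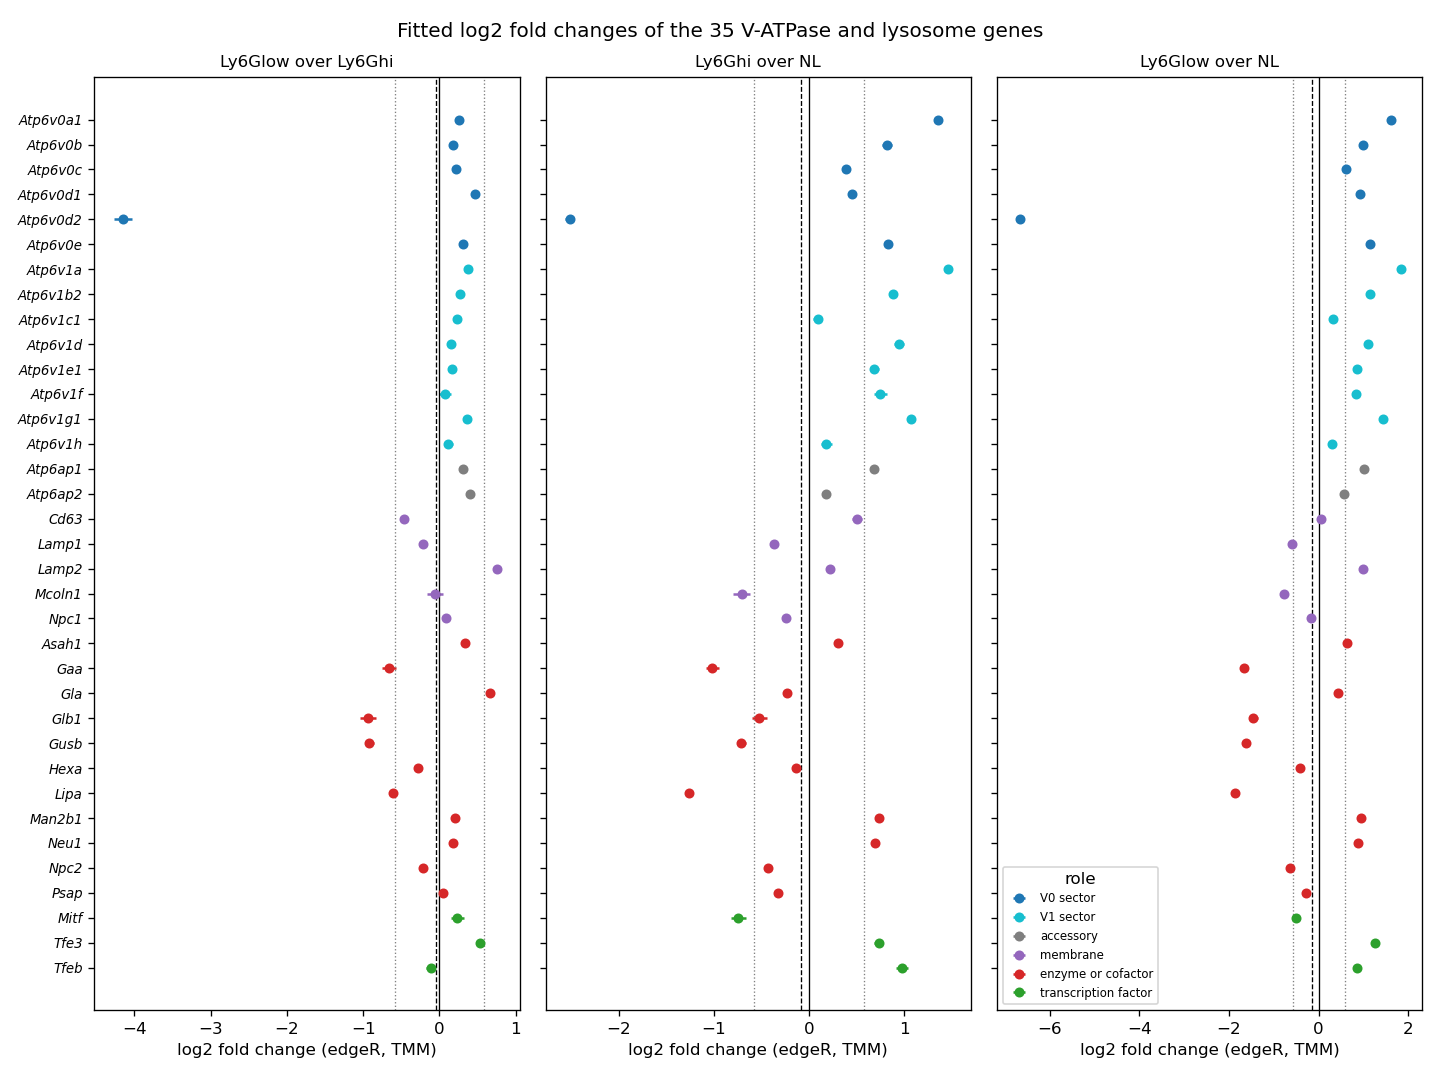
Log2 fold changes (x axis, edgeR with TMM) of the 35 genes (y axis, coloured by role) in the 3 comparisons. Points are fitted values with bars of 1 SE, the dashed line is the median of all tested genes, and dotted lines mark the threshold of 0.58. *Atp6v0d2* lies far to the left in each panel, at -4.15, -2.51 and -6.66, while the other V-ATPase subunits lie right of the dashed line.

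*Tfeb*, which encodes the factor best known for driving lysosome genes, was at 43.1, 43.3 and 46.7 CPM in Ly6Ghi, at 40.1, 43.6 and 39.4 CPM in Ly6Glow and at 24.2, 22.5 and 21.2 CPM in NL. The Ly6Ghi and Ly6Glow libraries overlapped and all 6 lay above NL. Its log2 fold change was 0.97 (SE 0.062, adjusted p = 2.19e-12, edgeR) in Ly6Ghi against NL and 0.86 (SE 0.064, adjusted p = 3.7e-11) in Ly6Glow against NL, and with total counts 0.51 and 0.16, neither of which passed the threshold. Between Ly6Glow and Ly6Ghi it was -0.11 (adjusted p = 0.129). *Tfe3*, its X-linked relative, was at 159, 161 and 152 CPM in Ly6Ghi, at 233, 229 and 221 CPM in Ly6Glow and at 100, 87.6 and 96.8 CPM in NL. The 3 groups did not overlap and Ly6Glow was the top group. Log2 fold changes were 0.53 in Ly6Glow against Ly6Ghi, short of the threshold, 0.73 (SE 0.045, adjusted p = 1.32e-12) in Ly6Ghi against NL and 1.26 (SE 0.045, adjusted p = 5.08e-17) in Ly6Glow against NL, and 0.30, 0.27 and 0.56 with total counts. *Mitf*, known from pigment cells, osteoclasts and mast cells, was at 16.6, 17.2 and 15.7 CPM in Ly6Ghi, at 16.3, 21.5 and 20.3 CPM in Ly6Glow and at 27.6, 27.9 and 27.4 CPM in NL. NL was above all other libraries, and Ly6Ghi against NL was called at -0.74 (SE 0.075, adjusted p = 7.1e-09) with TMM and at -1.21 with total counts. Ly6Glow against NL was at -0.51 and not called, and without Ly6Glow replicate 2 it passed at -0.58, as it did with total counts at -1.21.

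Shares within a library do not depend on how libraries are scaled. Of the summed FPKM of *Tfeb*, *Tfe3*, *Mitf* and the fourth family member *Tfec*, *Tfe3* took 61.6 to 62.8% in Ly6Ghi, 73.2 to 75.6% in Ly6Glow and 53.4 to 55.8% in NL. *Tfeb* took 23.3 to 25.1%, 18 to 18.9% and 16.6 to 18.3% in the same order. *Mitf* and *Tfec* were at their highest shares in NL, with 9.47 to 11% and 17.3 to 18.7%, and *Tfec* was at 2.97 to 3.54% in Ly6Glow. *Tfe3* was thus the largest share in all 9 libraries, and the family was most evenly divided in NL.

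The E-box letters of this family were counted in RefSeq promoter windows (GRCm38.p6, 250 bases before to 50 after the gene start), which matched 28 of the 35 genes. *Atp6v0d2* had no window. CACGTG, which reads the same on both strands, was in the windows of 9 of 28 genes (32.1%), against 8.09% of 27025 genes. The longer palindrome TCACGTGA was in 5 (17.9%, against 1.12%), and GTCACGTG on either strand was in 6 (21.4%, against 2.55%). Both longer strings contain the first, and all are letters of the CLEAR element known for TFEB. These letters are already known from lysosome gene promoters, so a higher share in such a list is a description and tests nothing. The upstream 250 bases of the 6 genes with GTCACGTG follow, 5′ to 3′ on the gene's strand, to show where the letters lie. Capitals mark CACGTG, TCACGTGA or GTCACGTG, and the *Atp6v0d1* match crosses the gene start, so only its first letters are shown.
Glb1, chr9:114400828-114401077, plus strand: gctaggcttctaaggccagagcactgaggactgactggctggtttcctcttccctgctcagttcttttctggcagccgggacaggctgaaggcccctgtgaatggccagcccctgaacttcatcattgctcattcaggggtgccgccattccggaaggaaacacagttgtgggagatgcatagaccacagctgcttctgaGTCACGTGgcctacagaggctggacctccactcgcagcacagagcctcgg
Atp6v0b, chr4:117887330-117887579, minus strand: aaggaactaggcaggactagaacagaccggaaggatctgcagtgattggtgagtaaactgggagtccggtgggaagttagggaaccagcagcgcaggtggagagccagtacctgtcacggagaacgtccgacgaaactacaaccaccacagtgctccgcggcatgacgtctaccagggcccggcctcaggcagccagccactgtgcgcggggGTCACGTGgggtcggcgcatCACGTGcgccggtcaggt
Atp6v0d1, chr8:105566065-105566314, minus strand: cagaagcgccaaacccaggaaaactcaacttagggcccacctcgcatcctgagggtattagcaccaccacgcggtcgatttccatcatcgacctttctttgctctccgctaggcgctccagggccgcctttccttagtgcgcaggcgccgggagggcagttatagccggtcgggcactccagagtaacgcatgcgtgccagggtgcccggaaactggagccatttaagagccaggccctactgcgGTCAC
Mcoln1, chr8:3500269-3500518, plus strand: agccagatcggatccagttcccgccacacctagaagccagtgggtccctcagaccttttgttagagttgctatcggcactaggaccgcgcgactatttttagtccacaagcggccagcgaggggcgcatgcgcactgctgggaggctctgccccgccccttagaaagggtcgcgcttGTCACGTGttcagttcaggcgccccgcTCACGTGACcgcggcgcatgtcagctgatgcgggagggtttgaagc
Gla, chrX:134601006-134601255, minus strand: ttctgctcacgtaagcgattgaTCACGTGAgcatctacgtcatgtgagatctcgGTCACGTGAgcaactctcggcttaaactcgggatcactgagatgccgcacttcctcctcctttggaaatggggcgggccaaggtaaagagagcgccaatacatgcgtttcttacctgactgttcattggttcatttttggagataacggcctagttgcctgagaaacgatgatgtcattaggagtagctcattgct
Lamp1, chr8:13158911-13159160, plus strand: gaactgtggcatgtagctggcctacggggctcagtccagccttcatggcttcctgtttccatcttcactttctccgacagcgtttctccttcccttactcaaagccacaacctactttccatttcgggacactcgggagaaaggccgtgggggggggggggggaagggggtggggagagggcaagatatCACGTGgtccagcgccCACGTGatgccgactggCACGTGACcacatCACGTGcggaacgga

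The 6 genes did not share a direction. In Ly6Glow against NL, *Atp6v0b* and *Atp6v0d1* were called higher, and *Glb1*, *Mcoln1* and *Lamp1* were called lower. *Gla* was not called in that comparison. The CACGTG letters in *Lamp1*, without the longer strings around them, began 61, 45, 28 and 15 bases before the start, those in *Gla* 227 and 194 bases before it. *Mcoln1* held them at 71 and 45 bases, *Atp6v0b* at 36 and 18 bases, and *Glb1* at 48 bases. The median log2 fold change in Ly6Glow against NL was 0.43 over the 9 genes with CACGTG and 0.82 over the 19 without. For TCACGTGA it went the other way, at 0.92 over 5 genes with it and 0.61 over 23 without. For GTCACGTG the medians were -0.08 and 0.83. In Ly6Glow against Ly6Ghi the medians with and without CACGTG were 0.18 and 0.16, and in Ly6Ghi against NL -0.24 and 0.51. Which median was higher thus varied between these sets and comparisons. The sets with the letters held 5, 6 and 9 genes and shared members, and the differences were not tested.

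*Atp6v0d2* had the largest changes of the 35 genes. It encodes the second form of the V0 d subunit, which links the proton channel to the central stalk, and is known from osteoclasts and alveolar macrophages. *Atp6v0d2* (gene ID 242341, chr4:19876838-19922566, GRCm38) was at 141, 150 and 143 CPM in NL, at 25.3, 26.0 and 24.6 CPM in Ly6Ghi and at 1.62, 1.51 and 1.14 CPM in Ly6Glow. No group overlapped another. The Ly6Glow values rested on 15 to 20.2 counts per library and the Ly6Ghi values on 398 to 441 counts. *Atp6v0d2* was 17.7-fold lower in Ly6Glow than in Ly6Ghi (log2 fold change -4.15, SE 0.12, adjusted p = 2.3e-17, edgeR). It was 5.71-fold lower in Ly6Ghi than in NL (-2.51, SE 0.049, adjusted p = 2.83e-21) and 101-fold lower in Ly6Glow than in NL (-6.66, SE 0.088, adjusted p = 4.12e-24). The calls held with total counts, at -4.38, -2.98 and -7.36.

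*Atp6v0d1*, the widely used d subunit gene on chromosome 8 (chr8:105524461-105566064), had the opposite order on the CPM scale. Its values were 200, 209 and 195 CPM in Ly6Ghi, 280, 283 and 274 CPM in Ly6Glow and 154, 142 and 146 CPM in NL, with no overlap between groups. The log2 fold changes were 0.47 in Ly6Glow against Ly6Ghi and 0.45 in Ly6Ghi against NL, both short of the threshold. In Ly6Glow against NL it was called at 0.92 (SE 0.038, adjusted p = 8.91e-16), and with total counts the 3 values were 0.23, -0.01 and 0.22. Of the summed FPKM of both d genes, *Atp6v0d2* took 37.1 to 40.5% in NL, 7.48 to 7.59% in Ly6Ghi and 0.253 to 0.346% in Ly6Glow. On FPKM, *Atp6v0d1* was at 120 in NL, 119 in Ly6Ghi and 140 in Ly6Glow on average, so the share moved with *Atp6v0d2*.

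Most alveolar macrophage markers moved with *Atp6v0d2*. Of 16 tested markers, without *Atp6v0d2* itself, 12 were called lower in Ly6Glow than in Ly6Ghi, 12 in Ly6Ghi than in NL and 14 in Ly6Glow than in NL, and none was called higher. Of all tested genes, 15.9%, 36.6% and 40.8% were called lower and 9.29%, 26.3% and 28.7% higher, in the same order. The summed CPM of these markers was 3280 to 3310 in NL, 2180 to 2230 in Ly6Ghi and 949 to 979 in Ly6Glow. *Chil3* was a large part of these sums, at means of 964, 1270 and 277 CPM in that order. It was also on the list of granule genes of early neutrophils. *Plet1* was at a mean of 246 CPM in NL, 63.6 in Ly6Ghi and 3.32 in Ly6Glow, and *Lpl*, which encodes lipoprotein lipase, was at 409, 73.5 and 8.94 CPM. *Krt79*, *Cidec* and *Fabp1* were near 0 in Ly6Glow, at means of 0.178, 0.104 and 0.103 CPM. *Siglecf* and *Cd9* were not called in any comparison, and *Cd9* was at a log2 fold change of 0.40 in Ly6Glow against Ly6Ghi. *Ear1* and *Chil3* were above NL in Ly6Ghi, at 0.17 and 0.40, not called. The part of such cells in the *Atp6v0d2* difference was not tested.

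**Figure D2:**
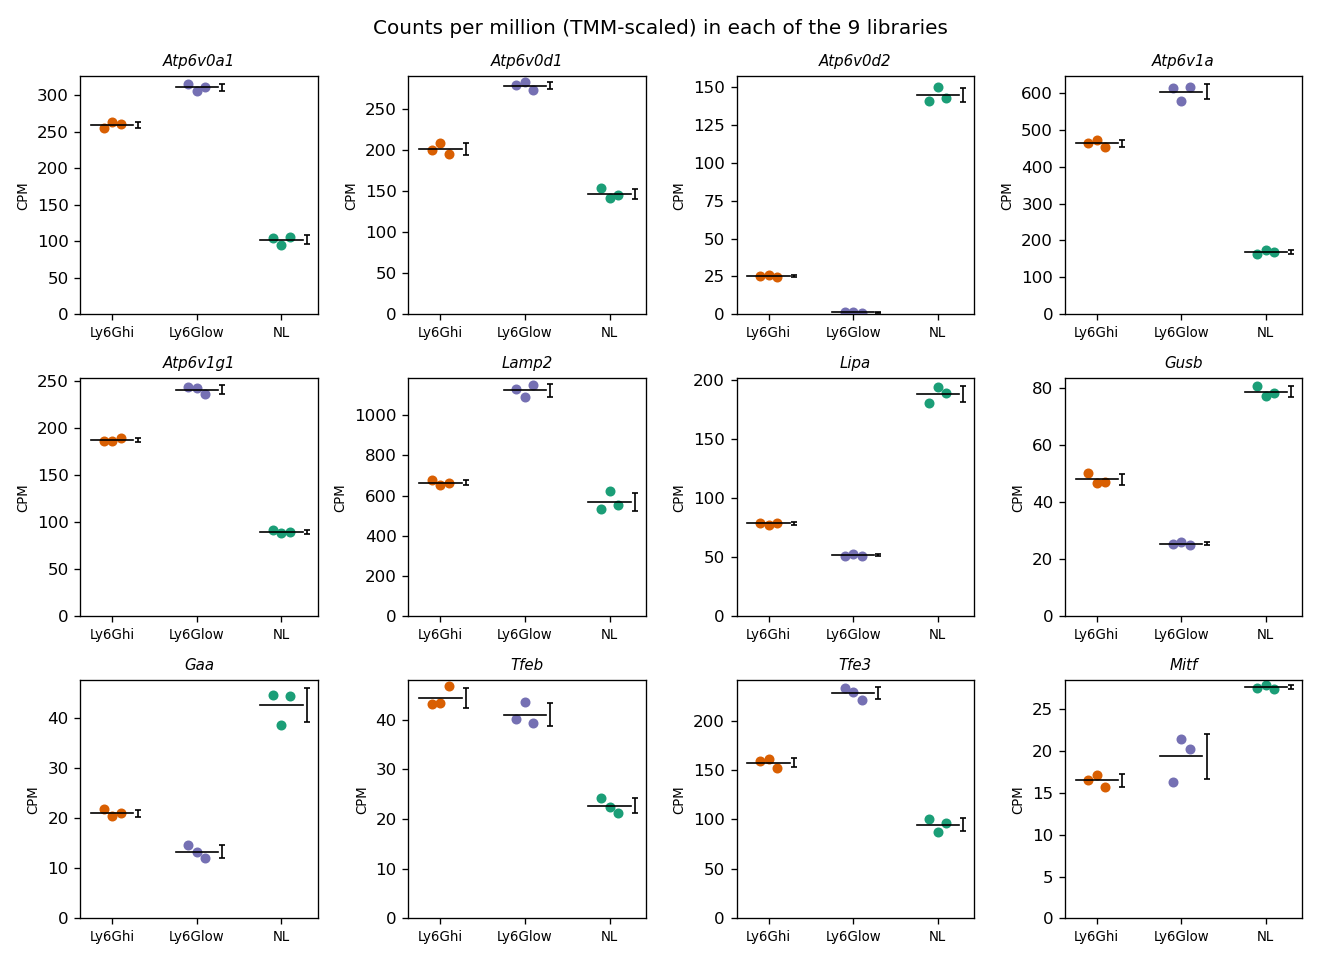
CPM on the TMM scale (y axes from 0) of 12 of the genes in each of the 9 libraries by group (x axes). Points are libraries, horizontal lines are group means and the bars beside them are 1 SD (n = 3). *Atp6v0d2* and *Lipa* are highest in NL and lowest in Ly6Glow, with the reverse for *Atp6v0a1* and *Atp6v1a*.

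The 13 other V-ATPase subunit genes lay on the other side of the median. This set was trimmed after *Atp6v0d2* had been seen, so its counts are a description. All 13 had log2 fold changes above 0 in the 3 comparisons with TMM, but with total counts only 6 did in Ly6Glow against Ly6Ghi, 9 in Ly6Ghi against NL and 10 in Ly6Glow against NL. With either scaling all 13 were above the median of all genes. Their median was 0.23, 0.82 and 0.99 with TMM and -0.003, 0.35 and 0.29 with total counts, in the order Ly6Glow against Ly6Ghi, Ly6Ghi against NL and Ly6Glow against NL. Relative to the median of all genes, the medians were 0.27, 0.91 and 1.15. In these comparisons 0, 9 and 11 of the 13 were called higher with TMM, where 9.29%, 26.3% and 28.7% of all tested genes were, and none was called lower. With total counts 0, 3 and 3 of them were called higher.

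Within V0, *Atp6v0a1* encodes the a subunit, part of the proton path. *Atp6v0a1* was at 255, 263 and 261 CPM in Ly6Ghi, 315, 306 and 311 CPM in Ly6Glow and 105, 94.9 and 106 CPM in NL. All tumor-bearing libraries lay above all NL libraries, and Ly6Glow above Ly6Ghi. Its log2 fold changes were 1.35 (SE 0.04, adjusted p = 2.55e-18, edgeR) in Ly6Ghi against NL and 1.61 (SE 0.04, adjusted p = 1.12e-19) in Ly6Glow against NL, and both calls held with total counts at 0.89 and 0.91. Ly6Glow against Ly6Ghi was at 0.26 and not called.

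*Tcirg1*, an a subunit gene known from osteoclasts and not among the 35, went the other way. *Tcirg1* was at 95.5 to 99.3 CPM in Ly6Ghi, 66.8 to 67.3 CPM in Ly6Glow and 109 to 121 CPM in NL, and was called lower in Ly6Glow against NL at -0.79 (SE 0.046, adjusted p = 3.87e-13). Within the summed FPKM of 4 a subunit genes, *Atp6v0a1* took 60.8 to 61.8% in Ly6Ghi, 71.5 to 72% in Ly6Glow and 33.5 to 35.3% in NL. The share of *Tcirg1* was 30.5 to 31.1%, 20.6 to 21.5% and 54.1 to 56.4%. The leading a subunit gene was therefore *Atp6v0a1* in all 6 tumor-bearing libraries and *Tcirg1* in all 3 NL libraries. *Atp6v0a2* took 6.91 to 10.8% in all libraries, and *Atp6v0a4* at most 0.188%.

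**Figure D3:**
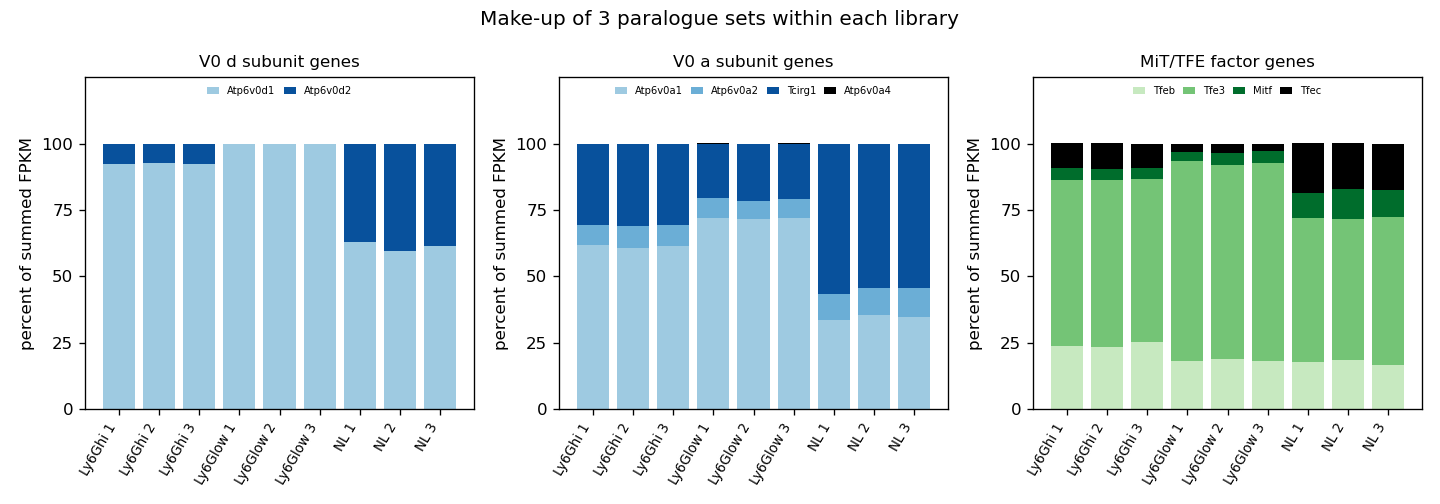
Percent of summed FPKM (y axis) taken by each gene in 3 sets of related genes, by library (x axis, 3 per group), for V0 d subunits, V0 a subunits and TFEB family factors. *Atp6v0d2* takes 37.1 to 40.5% of the d subunit FPKM in NL and at most 0.346% in Ly6Glow, and *Tcirg1* passes *Atp6v0a1* in NL only.

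The remaining V0 genes encode the proteolipid ring and its small partners. *Atp6v0e* was at 99.7, 95.5 and 96.3 CPM in Ly6Ghi, 118, 123 and 120 CPM in Ly6Glow and 55.6, 52.7 and 55.4 CPM in NL, with no overlap. It was called at 0.83 (SE 0.042, adjusted p = 3.69e-14) in Ly6Ghi against NL and 1.14 (SE 0.042, adjusted p = 1.03e-16) in Ly6Glow against NL, and with total counts the values were 0.37 and 0.44, below the threshold. *Atp6v0b*, a ring subunit, was at means of 150 CPM in Ly6Ghi, 170 in Ly6Glow and 85.1 in NL, and was called in both comparisons with NL at 0.82 and 0.99, against 0.35 and 0.29 with total counts. *Atp6v0c*, the main ring subunit, had the highest FPKM of the 14 V-ATPase subunits in each group, at means of 397 in Ly6Ghi, 391 in Ly6Glow and 417 in NL. On the CPM scale it was called in Ly6Glow against NL at 0.61 and not in Ly6Ghi against NL at 0.39, and both were negative with total counts, at -0.09 and -0.07. The call was also lost without NL replicate 2, at 0.57.

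*Atp6v1a* encodes the catalytic A subunit of V1, which binds ATP. It was at 463, 472 and 454 CPM in Ly6Ghi, 613, 579 and 615 CPM in Ly6Glow and 164, 174 and 168 CPM in NL. The groups were apart, and NL was lowest. *Atp6v1a* had the highest positive log2 fold changes of the 35 genes against NL, at 1.46 (SE 0.035, adjusted p = 8.37e-20, edgeR) in Ly6Ghi and 1.84 (SE 0.036, adjusted p = 1.7e-21) in Ly6Glow, and both calls held with total counts at 0.99 and 1.14. Against Ly6Ghi, Ly6Glow was at 0.38 and not called.

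*Atp6v1b2*, the B subunit gene of the same catalytic ring, was at 358, 372 and 364 CPM in Ly6Ghi, 437, 447 and 439 CPM in Ly6Glow and 202, 193 and 201 CPM in NL. It was called against NL at 0.88 (SE 0.033, adjusted p = 1.78e-16) and 1.15 (SE 0.033, adjusted p = 1.25e-18), and had 0.41 and 0.45 with total counts. *Atp6v1g1*, a peripheral stalk gene, was at 186, 186 and 190 CPM in Ly6Ghi, 244, 243 and 236 CPM in Ly6Glow and 91.5, 88.1 and 89.2 CPM in NL. The 3 groups of each gene were apart. *Atp6v1g1* was called against NL at 1.07 (SE 0.036, adjusted p = 2.3e-17) and 1.43 (SE 0.036, adjusted p = 1.2e-19), and again with total counts at 0.60 and 0.73.

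*Atp6v1d*, a central stalk gene, was at 65.5, 70.2 and 69.3 CPM in Ly6Ghi, 78.0, 72.8 and 77.8 CPM in Ly6Glow and 36.5, 36.7 and 33.3 CPM in NL. It was called against NL at 0.94 (SE 0.052, adjusted p = 1.56e-13) and 1.10 (SE 0.052, adjusted p = 1.11e-14), with 0.48 and 0.40 under total counts. *Atp6v1e1* and *Atp6v1f*, of the stalks, were called in both comparisons with NL, at 0.68 and 0.75 in Ly6Ghi and at 0.85 and 0.82 in Ly6Glow, and none of these 4 calls held with total counts. The smallest differences of V1 were those of *Atp6v1c1* and *Atp6v1h*, the subunits tied to reversible assembly. In Ly6Ghi against NL they were at 0.09 and 0.18 and in Ly6Glow against NL at 0.32 and 0.30, not called, and negative with total counts at -0.38 and -0.28, and -0.38 and -0.40. V1 genes therefore did not move by 1 common amount, with a range from 0.30 to 1.84 in Ly6Glow against NL.

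Of the accessory proteins, *Atp6ap1* was at 271, 263 and 263 CPM in Ly6Ghi, 342, 328 and 323 CPM in Ly6Glow and 167, 159 and 169 CPM in NL. It was called against NL at 0.69 (SE 0.036, adjusted p = 7.02e-14) in Ly6Ghi and 1.00 (SE 0.036, adjusted p = 6.58e-17) in Ly6Glow, with 0.22 and 0.30 under total counts. *Atp6ap2*, also known as the prorenin receptor, was not called in any comparison, at 0.40, 0.17 and 0.58. Without Ly6Glow replicate 2, Ly6Glow replicate 3 or NL replicate 2 it passed in Ly6Glow against NL, at 0.59, 0.59 and 0.61.

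The membrane proteins were divided. *Lamp2*, a lysosomal membrane glycoprotein, was at 665 ± 12.4 CPM (SD, n = 3) in Ly6Ghi, 1120 ± 30.8 CPM in Ly6Glow and 570 ± 45.5 CPM in NL. It was 1 of the 2 genes called higher in Ly6Glow against Ly6Ghi, at 0.76 (SE 0.042, adjusted p = 1.11e-12, edgeR), and was at 0.52 with total counts, short of the threshold. Its partner *Lamp1* was at -0.22 in that comparison and -0.37 in Ly6Ghi against NL, not called, and was called lower in Ly6Glow against NL at -0.59 (SE 0.032, adjusted p = 9.93e-14). That call was lost without Ly6Glow replicate 1, without NL replicate 2 and with DESeq2 size factors, at -0.57, -0.58 and -0.50. With total counts *Lamp1* was called lower against NL in both Ly6Ghi and Ly6Glow, at -0.84 and -1.29. *Lamp1* and *Lamp2* thus lay on opposite sides of 0 in Ly6Glow against Ly6Ghi under both scalings, with -0.45 and 0.52 under total counts. *Mcoln1*, which encodes the TRPML1 calcium channel, was called lower in both comparisons with NL, at -0.71 (SE 0.086, adjusted p = 1.14e-07) and -0.77 (SE 0.091, adjusted p = 8.23e-08). The tetraspanin gene *Cd63* was at -0.46, 0.51 and 0.04, and the cholesterol transporter gene *Npc1* at 0.08, -0.24 and -0.16, with no call for either. With total counts *Cd63* was called lower in Ly6Glow against Ly6Ghi at -0.70 and in Ly6Glow against NL at -0.66, and *Npc1* in Ly6Ghi and Ly6Glow against NL at -0.71 and -0.86.

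*Lipa* encodes lysosomal acid lipase, which frees cholesterol and fatty acids. *Lipa* (chr19:34492316-34527474) was at 78.9, 77.6 and 79.4 CPM in Ly6Ghi, 51.1, 52.8 and 51.3 CPM in Ly6Glow and 181, 194 and 189 CPM in NL. The groups were apart, with NL highest and Ly6Glow lowest. It was 1.52-fold lower in Ly6Glow than in Ly6Ghi (log2 fold change -0.60, SE 0.046, adjusted p = 2.36e-10, edgeR). Against NL it was 2.4-fold lower in Ly6Ghi (-1.26, SE 0.039, adjusted p = 5.76e-18) and 3.64-fold lower in Ly6Glow (-1.86, SE 0.042, adjusted p = 2.39e-20). The calls against NL held under every scaling tried, while the call between Ly6Glow and Ly6Ghi was lost with DESeq2 size factors and in DESeq2, at -0.54 in both.

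*Gusb*, *Gaa* and *Glb1* encode glycosidases. *Gusb*, for beta-glucuronidase, was at 50.3, 46.7 and 47.2 CPM in Ly6Ghi, 25.3, 26.0 and 25.1 CPM in Ly6Glow and 80.8, 77.2 and 78.4 CPM in NL. It was called lower at -0.92 (SE 0.057, adjusted p = 7.23e-12) in Ly6Glow against Ly6Ghi, -0.71 (SE 0.046, adjusted p = 2.73e-12) in Ly6Ghi against NL and -1.63 (SE 0.053, adjusted p = 1.01e-17) in Ly6Glow against NL. All 3 groups were apart for these 3 genes.

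*Gaa*, the acid alpha-glucosidase gene for glycogen, was at 21.8, 20.4 and 21.0 CPM in Ly6Ghi, 14.7, 13.3 and 12.0 CPM in Ly6Glow and 44.6, 38.7 and 44.5 CPM in NL. It was called at -0.66 (SE 0.089, adjusted p = 1.72e-06), -1.02 (SE 0.068, adjusted p = 6.06e-12) and -1.68 (SE 0.078, adjusted p = 7.99e-15) in the same order. *Glb1*, for beta-galactosidase, was at 10.9, 12.2 and 11.8 CPM in Ly6Ghi, 6.17, 6.02 and 6.1 CPM in Ly6Glow and 16.7, 16.0 and 17.5 CPM in NL. *Glb1* was called lower at -0.93 (SE 0.1, adjusted p = 5.84e-08) in Ly6Glow against Ly6Ghi and at -1.46 (SE 0.091, adjusted p = 1.68e-12) in Ly6Glow against NL, and was at -0.52 in Ly6Ghi against NL, not called, but called at -0.99 with total counts. The calls of *Gusb* and *Gaa* held under every scaling tried.

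The other 7 enzymes and cofactors were divided. *Gla*, for alpha-galactosidase A, was at 98.0 ± 2.78 CPM (SD, n = 3) in Ly6Ghi, 156 ± 4.42 CPM in Ly6Glow and 116 ± 3.75 CPM in NL. It was called higher in Ly6Glow against Ly6Ghi at 0.67 (SE 0.041, adjusted p = 6.59e-12), at 0.43 with total counts and short of the threshold. *Man2b1*, for an alpha-mannosidase, and *Neu1*, for a sialidase, were called higher against NL at 0.74 and 0.69 in Ly6Ghi and at 0.94 and 0.87 in Ly6Glow. With total counts these were 0.27 and 0.23, and 0.24 and 0.17, and none was called. *Asah1*, for acid ceramidase, was called in Ly6Glow against NL at 0.64, where it was -0.06 with total counts. *Npc2*, for a cholesterol carrier, was highest in NL and lowest in Ly6Glow with no overlap between groups, like *Lipa*, and was called lower in Ly6Glow against NL at -0.65 (SE 0.038, adjusted p = 4.19e-13). That call was lost with DESeq2 size factors at -0.56, and with total counts *Npc2* was also called in Ly6Ghi against NL at -0.90. *Hexa*, for a hexosaminidase chain, had the same order with no overlap, at -0.29, -0.14 and -0.43, and *Psap*, for the saposin precursor and the highest of the 35 genes on FPKM in each group, at 0.05, -0.33 and -0.28, with no call for either. With total counts both were called lower against NL, *Hexa* at -0.61 in Ly6Ghi and -1.13 in Ly6Glow, and *Psap* at -0.80 and -0.98. *Gla* was then also called lower in Ly6Ghi against NL, at -0.70, from -0.24 with TMM.

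**Figure D4:**
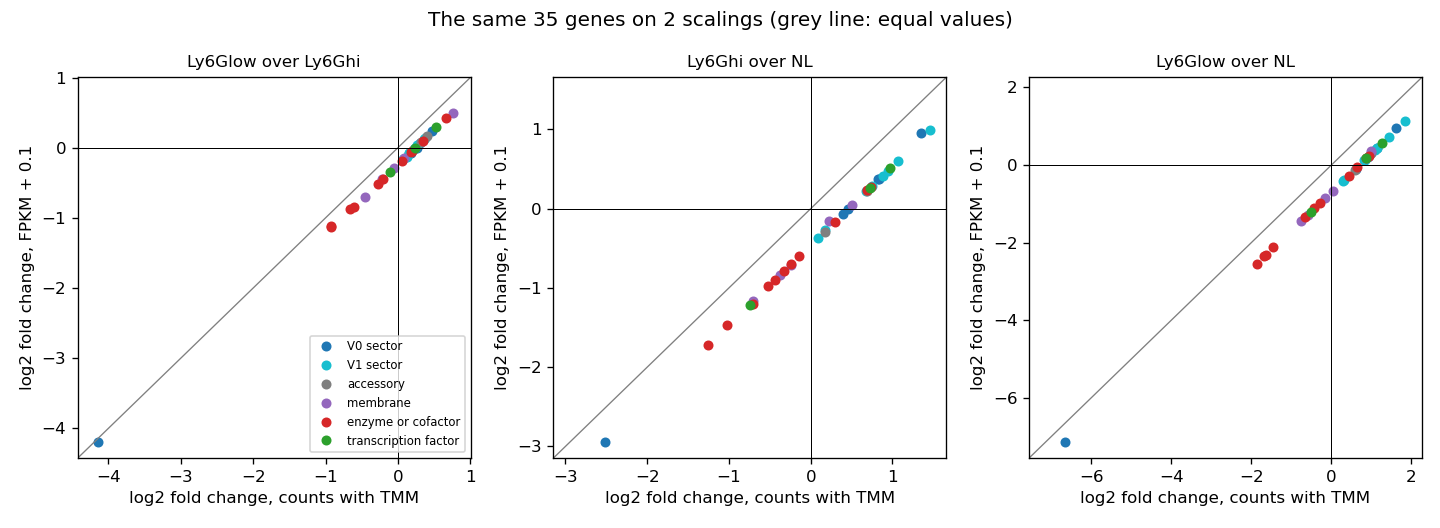
Log2 fold changes of the 35 genes from counts with TMM (x axis) and from log2(FPKM + 0.1) (y axis) in the 3 comparisons, coloured by role, with a grey line of equal values. The points run below and parallel to the line, so that V-ATPase subunits near 0 fall on its other side on FPKM while *Atp6v0d2* stays far lower on both.

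The mean CPM was ordered Ly6Glow, Ly6Ghi, NL from high to low for 20 of the 35 genes and the reverse for 9. On mean FPKM, 6 genes had the first order and 14 the reverse. Per length, *Psap* was the highest of the 35 genes at 661 FPKM in Ly6Ghi, 580 in Ly6Glow and 1150 in NL, and the lowest was *Mitf* at 3.26 FPKM in Ly6Ghi and 7.68 in NL but *Atp6v0d2* at 0.443 FPKM in Ly6Glow. Neighbouring groups in these orders overlapped for 5 genes between Ly6Glow and Ly6Ghi (*Atp6v1f*, *Psap*, *Mcoln1*, *Tfeb* and *Mitf*) and for *Cd63* between Ly6Glow and NL.

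Lists of other lysosome genes, written from general knowledge with earlier results known, gave 142 tested genes. In Ly6Glow against Ly6Ghi 13 were called higher and 26 lower, in Ly6Ghi against NL 40 and 42, and in Ly6Glow against NL 48 and 42, with medians of -0.001, 0.08 and 0.08. With total counts the higher calls were 5, 18 and 12 and the lower calls 35, 61 and 72. For reading the lists that follow, all tested genes were called higher at 9.29%, 26.3% and 28.7% and lower at 15.9%, 36.6% and 40.8% in the same order of comparisons.

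Among 15 tested genes of V-ATPase assembly and regulation, 2 were higher and 4 lower in Ly6Glow against Ly6Ghi. *Dmxl2*, for a rabconnectin that aids V-ATPase assembly, was called at 0.75 (adjusted p = 2.46e-14, edgeR) and *Rogdi*, for a partner in the same complex, at -0.66 (adjusted p = 7.12e-08). Against NL, 4 were higher and 5 lower in Ly6Ghi, and 6 and 5 in Ly6Glow, and with total counts 1, 1 and 0 genes were higher and 4, 7 and 8 lower in the 3 comparisons. *Rogdi* was at 1.82 and 1.17, *Dmxl2* at 1.22 in Ly6Glow, and *Ostm1* at 1.04 in Ly6Ghi. On the low side *Clcn7*, which encodes the chloride and proton exchanger of lysosomes, was at -0.91 and *Ncoa7* at -1.26 in Ly6Ghi, and *Ncoa7* was at -1.88 and the assembly factor gene *Vma21* at -1.05 in Ly6Glow. Of 5 other V-ATPase subunits, 0, 1 and 1 were higher and 1, 2 and 3 lower in the 3 comparisons. Their median log2 fold changes were -0.13, -0.24 and -0.79, below the -0.04, -0.09 and -0.16 of all tested genes. As a set these 5 did not lie above the median, but *Atp6v1c2*, *Atp6v0e2* and *Atp6v1g2* had group means of at most 4.44, 7.44 and 7.34 CPM. *Atp6v0a2* and *Atp6v1g2* did lie above the median against NL, at 0.19 and 2.53 in Ly6Ghi and 0.06 and 2.45 in Ly6Glow. In Ly6Glow against Ly6Ghi they lay below it, at -0.13 and -0.08.

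Other hydrolases and their activators, 42 tested, had 4 higher and 11 lower in Ly6Glow against Ly6Ghi, 8 and 18 in Ly6Ghi against NL, and 8 and 19 in Ly6Glow against NL. These were 9.52%, 19% and 19% higher and 26.2%, 42.9% and 45.2% lower, and with total counts 1, 4 and 2 genes were higher and 14, 24 and 29 lower. *Acp5*, for tartrate-resistant acid phosphatase, and *Scpep1* were called lower in the first comparison at -2.15 and -0.92, and *Hgsnat* and *Ppt1* higher at 0.85 and 0.71. In Ly6Ghi against NL, *Hyal2* and *Cpq* were at -2.31 and -2.09, and *Plbd1* and *Galns* at 1.44 and 1.14. In Ly6Glow against NL, *Acp5* and *Cpq* were at -3.20 and -2.75, and *Gm2a* at 1.40.

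Lysosomal membrane proteins and sorting receptors, 33 tested, had 3 higher and 4 lower, 3 and 12, and 4 and 9 in the same order. As shares these were 9.09%, 9.09% and 12.1% higher and 12.1%, 36.4% and 27.3% lower, and with total counts 2, 2 and 2 genes were higher and 7, 17 and 21 lower. *Slc15a3*, a peptide and histidine transporter gene, and *Slc11a1*, the phagosomal metal transporter gene, were called at 1.22 and 1.00 in Ly6Glow against Ly6Ghi. *Lamp3* was called lower at -3.65 in Ly6Ghi against NL and -4.07 in Ly6Glow against NL, and *Slc11a2* at -1.90 and -2.81. *Ctns*, the cystine exporter gene, was at 1.59 and 2.13 and *Cln3* at 1.26 and 1.33 in the same 2 comparisons.

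A list of 30 genes joined *Tfec* and nutrient-sensing regulators of the TFEB family with other factors, such as *Nlrx1* and *Max*. Of these, 2 were higher and 4 lower in Ly6Glow against Ly6Ghi, 15 and 3 in Ly6Ghi against NL, and 18 and 4 in Ly6Glow against NL. The shares were 6.67%, 50% and 60% higher and 13.3%, 10% and 13.3% lower. With total counts 0, 7 and 3 genes were higher and 6, 6 and 8 lower, that is 0%, 23.3% and 10% higher and 20%, 20% and 26.7% lower, against 4.04%, 12.3% and 9.43% and 26.4%, 48.5% and 56.7% of all tested genes. *Tfec* was called lower at -1.28 in Ly6Glow against Ly6Ghi and -1.68 in Ly6Glow against NL. *Rptor*, for the mTORC1 scaffold raptor, was at -0.98 and -1.80 there and at -0.81 in Ly6Ghi against NL. *Rheb*, for the GTPase that activates mTORC1, was called higher in Ly6Glow against Ly6Ghi at 0.61. Against NL, *Nlrx1* was at 2.29 in Ly6Ghi and 2.08 in Ly6Glow, *Lamtor4*, for a Ragulator subunit, at 1.76 in Ly6Ghi, and *Max* at 1.59 in Ly6Glow.

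The last list joined autophagy genes with others placed in the TFEB programme, such as *Hif1a* and *Gpnmb*. Its 18 tested genes had 3 higher and 2 lower in Ly6Glow against Ly6Ghi, 9 and 3 in Ly6Ghi against NL, and 11 and 3 in Ly6Glow against NL. This was 16.7%, 50% and 61.1% higher and 11.1%, 16.7% and 16.7% lower, and with total counts 1, 3 and 4 genes were higher and 2, 5 and 3 lower. *Hif1a* and *Map1lc3b*, for the autophagosome protein LC3B, were called at 0.84 and 0.69 in Ly6Glow against Ly6Ghi, and *Wipi1* at -0.64. *Wipi1* and *Atg9a* were at 1.86 and 1.39 in Ly6Ghi against NL, and *Atg9a* and *Ulk1*, for the kinase that starts autophagy, at 1.75 and 1.57 in Ly6Glow against NL. *Gpnmb*, a glycoprotein gene of macrophages and osteoclasts, was called lower at -3.63 in Ly6Ghi against NL and -6.62 in Ly6Glow against NL, and *Gabarapl1* at -1.26 and -1.36.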

How the data were processed

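RNA-seq of 3 groups of 3 sorted neutrophil libraries was analysed. The authors deposited 1 table of expected counts per gene (37.9% of values whole) and 1 of FPKM. The submitters' processing notes name the genome build mm10 (GRCm38), and the aligner and counter are not given in the sources used here. Library preparation used poly(A) RNA and a dUTP strand protocol, per the labels. Counts were rounded and tested with edgeR 4.0.16 in R 4.3.3 (TMM, quasi-likelihood, all 9 libraries in 1 model, Benjamini-Hochberg over the 14108 genes kept by filterByExpr). Of 22064 genes listed, 3739 had no values. Alternatives were other scalings, DESeq2 1.42.0, other filters and thresholds, limma 3.58.1 on FPKM after adding 1 or 0.1 and taking log2, the replicate block, the 6 libraries of a comparison alone, and each library left out. The test was tried on simulated data first. With 3 libraries a group, an exact permutation test cannot go below p = 0.1, so single values were tested only in the model across genes. Libraries of a group differed by more than sampling noise (chi-square per degree of freedom 1.4 to 5.36, highest for pairs with NL replicate 2). Values in every library are given for members with an absolute log2 fold change above 1 and an adjusted p of at most 0.05 in any comparison, and for both d subunit genes and the 3 factors. From each list of other genes the 2 largest increases and decreases among called genes with at least 10 CPM in the higher group are named. A result that this rule would name is not reported here. *Tcirg1* was also given for its a subunit share, chosen after its values were seen. Members, lists and tests were chosen with earlier results of these data known. Promoter windows and gene coordinates are from RefSeq (GRCm38.p6).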

Additional observations from a re-analysis of the deposited data

How the results depend on the processing

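The scaling between libraries and the fold-change threshold both moved the counts of calls. The TMM factors were 0.803 to 0.807 for Ly6Glow, 0.945 to 0.95 for Ly6Ghi and 1.3 to 1.32 for NL. With total counts, and likewise on FPKM with limma at either pseudocount or with a filter at an FPKM of 1, the called members were 0 higher in Ly6Glow against Ly6Ghi, 3 higher and 13 lower in Ly6Ghi against NL, and 3 higher and 13 lower in Ly6Glow against NL. Upper-quartile scaling left 8 members higher in Ly6Ghi against NL, as did requiring 10 counts in every library. Of all genes tested under these settings, 19.6% and 23.6% were higher. Without a fold-change threshold, 20 members were higher and 9 lower in Ly6Glow against Ly6Ghi, and 13 were lower in Ly6Ghi against NL. A threshold of 1 gave 0 higher and 1 lower, 3 higher and 3 lower, and 8 higher and 5 lower in the 3 comparisons in the order Ly6Glow against Ly6Ghi, Ly6Ghi against NL and Ly6Glow against NL. The share of all tested genes was not counted without a threshold or at a threshold of 1, so these member counts have no background. Leaving out 1 library at a time, the counts stayed at 2 higher and 5 lower, at 14 higher and 6 lower, and at 18 to 19 higher and 7 to 9 lower in the same order.

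In Ly6Glow against Ly6Ghi, total counts turned the log2 fold changes of *Atp6v0b*, *Atp6v0c*, *Atp6v1c1*, *Atp6v1d*, *Atp6v1e1*, *Atp6v1f*, *Atp6v1h*, *Man2b1*, *Neu1*, *Npc1*, *Psap* and *Mitf* negative, at -0.06, -0.02, -0.003, -0.08, -0.07, -0.16, -0.12, -0.03, -0.06, -0.15, -0.19 and -0.002 in that order. The corresponding values were -0.07, -0.02, -0.004, -0.08, -0.07, -0.16, -0.13, -0.04, -0.06, -0.14, -0.19 and -0.003 on log2(FPKM + 1), filtered or not, and -0.07, -0.02, -0.004, -0.08, -0.08, -0.16, -0.13, -0.04, -0.06, -0.15, -0.19 and -0.006 on log2(FPKM + 0.1). In Ly6Ghi against NL, total counts turned the log2 fold changes of *Atp6v0c*, *Atp6v0d1*, *Atp6v1c1*, *Atp6v1h*, *Atp6ap2*, *Lamp2* and *Asah1* negative, at -0.07, -0.01, -0.38, -0.28, -0.29, -0.24 and -0.17 in that order. The corresponding values were -0.07, -0.01, -0.36, -0.26, -0.28, -0.15 and -0.16 on log2(FPKM + 1), filtered or not, and -0.07, -0.01, -0.37, -0.27, -0.29, -0.16 and -0.17 on log2(FPKM + 0.1). In Ly6Glow against NL, total counts turned the log2 fold changes of *Atp6v0c*, *Atp6v1c1*, *Atp6v1h*, *Atp6ap2*, *Cd63*, *Gla* and *Asah1* negative, at -0.09, -0.38, -0.40, -0.13, -0.66, -0.27 and -0.06 in that order. The corresponding values were -0.09, -0.36, -0.39, -0.12, -0.65, -0.26 and -0.06 on log2(FPKM + 1), filtered or not, and -0.09, -0.38, -0.41, -0.12, -0.66, -0.27 and -0.06 on log2(FPKM + 0.1).

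The 13 V-ATPase subunits other than *Atp6v0d2* all lay above the median of all genes, except that 12 did on log2(FPKM + 1) in Ly6Glow against Ly6Ghi and Ly6Ghi against NL, with the FPKM filter in Ly6Ghi against NL, and with the filter at 10 counts in Ly6Ghi against NL. Other reversals were few. *Mcoln1* in Ly6Glow against Ly6Ghi went to 0.008 with DESeq2 size factors, 0.001 in DESeq2 and 0.02 without Ly6Glow replicate 3. In Ly6Ghi against NL, upper-quartile scaling gave -0.10 for *Atp6v1c1*, -0.01 for *Atp6v1h* and -0.02 for *Atp6ap2*, and the filter at 10 counts gave -0.08 for *Atp6v1c1*. In Ly6Glow against NL, *Cd63* went to -0.15 with upper-quartile scaling and -0.14 with that filter. Of 1890 values of single members under the alternatives, 1584 kept direction and call, 64 gained a call, 129 lost one and 113 changed sign.

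No pairing of the libraries by replicate number was seen. With 3 libraries a group and a small spread between them, this check cannot show whether groups shared mice. Same-numbered libraries of different groups had correlations of their deviations between -0.0683 and 0.0766. A fit with the replicate block called 3522, 8856 and 9775 genes, against 3560, 8874 and 9809 without it, and it left the member counts at 2 higher and 5 lower, 14 and 6, and 18 and 8. Counts of the other lysosome genes under each alternative were added after seeing the data. With total counts they were 5 higher and 35 lower in Ly6Glow against Ly6Ghi, 18 and 61 in Ly6Ghi against NL, and 12 and 72 in Ly6Glow against NL, against 13 and 26, 40 and 42, and 48 and 42 with TMM. The precision for *Atp6v0d2* in Ly6Glow was limited by 15 to 20.2 counts per library.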
